A study of Mus musculus with 12 samples.

Results

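The genes described here were 8 genes of the ADAM shedding system, of the 48526 genes in the count table. They comprised the ADAM proteases Adam19, Adam17, Adam10, Adam9, Adam8 and Adam15 and the iRhom genes Rhbdf1 and Rhbdf2, taken as a list of symbols and matched to the table through GENCODE mouse annotation (GRCm38). Adam19 was put on the list because its level differed between the genotypes in these same libraries, so it was chosen by its KO against WT values, and all its values below, which rest on the same libraries, are a description with no test. The other 7 genes are relatives of Adam19 or partners of ADAM17. The list as a whole was drawn up with results of these data known, so the p-values of these 7 genes are not those of genes picked blindly. RNA was measured by stranded total RNA sequencing in bone marrow derived macrophages (BMDM), which were grown from mouse bone marrow for 6 days in medium conditioned by L929 cells. HSS9 KO mice were homozygous for the deletion of an enhancer upstream of Tnf that the study calls TNF-9, and the controls (WT) were labelled as HSS9+/+ littermates. Cells of each genotype were treated for 6 hr with PBS (untreated, UT) or with lipopolysaccharide (LPS), the bacterial cell wall component sensed by TLR4, giving 4 groups of 3 libraries. Every group thus shared the tissue, the culture and the time, and the deletion, carried in the germ line, was present in all cells of the KO animals. The labels do not say whether the libraries of a group came from separate animals, so p-values measure the spread between these libraries.

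ADAM proteases are membrane-anchored metalloproteases that cut the outer part off other membrane proteins, a step called ectodomain shedding. ADAM17, also known as the TNF converting enzyme, releases soluble TNF from the membrane precursor of macrophages, and it reaches the cell surface only together with an iRhom, which is encoded by Rhbdf1 or Rhbdf2 and of which the Rhbdf2 form prevails in blood cells. ADAM10 is the closest relative of ADAM17, travels with tetraspanins of the TspanC8 group and starts the cleavage of Notch receptors. ADAM8, ADAM9, ADAM15 and ADAM19 are further active proteases of the family, of which ADAM8 is typical of myeloid cells and ADAM19 was described in muscle precursors, the heart and neuregulin processing.

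The members lie apart in the genome (GRCm38, GENCODE coordinates). Adam19 spans chr11:46055992-46147343 on the plus strand and Adam17 spans chr12:21323509-21373632 on the minus strand. Adam10 is at chr9:70678997-70780229, Adam9 at chr8:24949611-25016927, Adam8 at chr7:139978932-139992562 and Adam15 at chr3:89338542-89349996. Rhbdf1 and Rhbdf2 are both on chromosome 11, at chr11:32209585-32222300 and chr11:116598165-116627019. RefSeq start regions (GRCm38.p6) were at hand for 5 of the 8 genes, namely Adam19, Adam17, Adam10, Adam8 and Adam15. The 250 bases before the start are shown for Adam19, the gene chosen by its genotype difference, and for Adam17 and Adam10, whose RNA moved in opposite directions after LPS. Each reads 5′ to 3′ on the strand of its gene, with matches to the motifs searched in capitals.

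Adam19, chr11:46055734-46055983, plus strand: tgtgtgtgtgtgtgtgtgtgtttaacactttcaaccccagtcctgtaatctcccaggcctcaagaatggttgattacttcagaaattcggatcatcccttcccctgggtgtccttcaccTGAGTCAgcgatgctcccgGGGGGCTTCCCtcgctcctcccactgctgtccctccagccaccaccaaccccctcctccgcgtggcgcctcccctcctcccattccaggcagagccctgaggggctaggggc

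Adam17, chr12:21373633-21373882, minus strand: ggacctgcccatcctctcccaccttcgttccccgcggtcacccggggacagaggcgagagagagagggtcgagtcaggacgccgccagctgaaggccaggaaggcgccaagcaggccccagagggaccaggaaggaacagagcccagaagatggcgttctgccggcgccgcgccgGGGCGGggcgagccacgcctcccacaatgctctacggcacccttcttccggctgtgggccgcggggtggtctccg

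Adam10, chr9:70678732-70678981, plus strand: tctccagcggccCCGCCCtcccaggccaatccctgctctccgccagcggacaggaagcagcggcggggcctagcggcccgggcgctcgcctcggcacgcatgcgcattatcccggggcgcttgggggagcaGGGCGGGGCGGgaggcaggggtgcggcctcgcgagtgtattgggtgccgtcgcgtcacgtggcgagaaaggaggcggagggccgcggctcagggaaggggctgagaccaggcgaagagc

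Motifs were searched on both strands as TGANTCA for AP-1, GGGCGG for the GC box, TATAAA for the TATA box, GAGGAA for the core bound by PU.1, and the kappaB consensus of NF-kappaB by its name. Adam19 has 3 RefSeq starts, and the one shown lies 8 bases from the GENCODE start. Its window held 1 AP-1 match and 2 overlapping kappaB matches, which form the longer capital run, and no GC box. Of 32817 start regions of the same length, 6.75% held the AP-1 letters and 7.25% the kappaB consensus. The Adam17 window held 1 GC box and the Adam10 window 3, of which 2 overlap, whereas neither held an AP-1 or kappaB match. The windows of Adam8 and Adam15 also held 1 GC box each and none of the other motifs. The GC box was found in 32.7% of all start regions, the TATA box in 12.4% and the PU.1 core in 23.3%, and the last 2 were found in none of the 5 windows. These matches describe letters in a window, and binding was not measured.

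The libraries held 26154533 to 36423921 counts. Levels are given as CPM, the count relative to a common library size corrected by TMM factors, which allow for RNA composition and ran from 0.8115 to 1.294, with the higher factors in UT libraries. All 8 members passed the filter on low counts that 15523 genes passed. Markers of macrophages were high throughout, Adgre1 included. The summed CPM of 8 markers was 28900 to 30000 in WT UT, 33300 to 34400 in KO UT, 27900 to 29500 in WT LPS and 30200 to 32100 in KO LPS, so the sums were higher in KO without overlap in both conditions. Lyz2 made up most of these sums, with means of 23500 CPM in WT UT, 27300 in KO UT, 18500 in WT LPS and 20300 in KO LPS. Of the 8 markers, 5 passed as higher in KO in each condition, while Csf1r was lower in UT. Libraries of WT LPS differed from each other more than those of other groups, with a chi-square per degree of freedom of 15.8, 41.8 and 11.2 for its 3 pairs against 3.74 to 13.4 for pairs within the other groups, and library 1 against library 3 stood furthest apart. In such bulk RNA, fewer cells of a type and less RNA per cell cannot be told apart.

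Per kilobase of exon, Adam8 was the most abundant member in every group, at 187 ± 3.10 CPM per kb (SD, n = 3) in WT UT. Adam17 came next at 46.8 ± 0.222 CPM per kb, followed by Adam10 at 43.2 ± 1.84, Adam9 at 39.5 ± 0.918 and Adam15 at 22.2 ± 0.501 CPM per kb (SD, n = 3). Rhbdf2 stood lower at 5.07 ± 0.223 CPM per kb, and Adam19 and Rhbdf1 were the lowest at 0.430 ± 0.0564 and 0.344 ± 0.0404 CPM per kb (SD, n = 3). The libraries of neighbours in this order did not overlap, apart from those of Adam19 and Rhbdf1. After LPS the order in WT was Adam8, Adam17, Adam9, Rhbdf2, Adam10, Adam15, Adam19 and Rhbdf1, with no overlap between neighbours. The order in KO LPS was the same, so Rhbdf2 had moved above Adam10 in both genotypes.

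**Figure D1:**
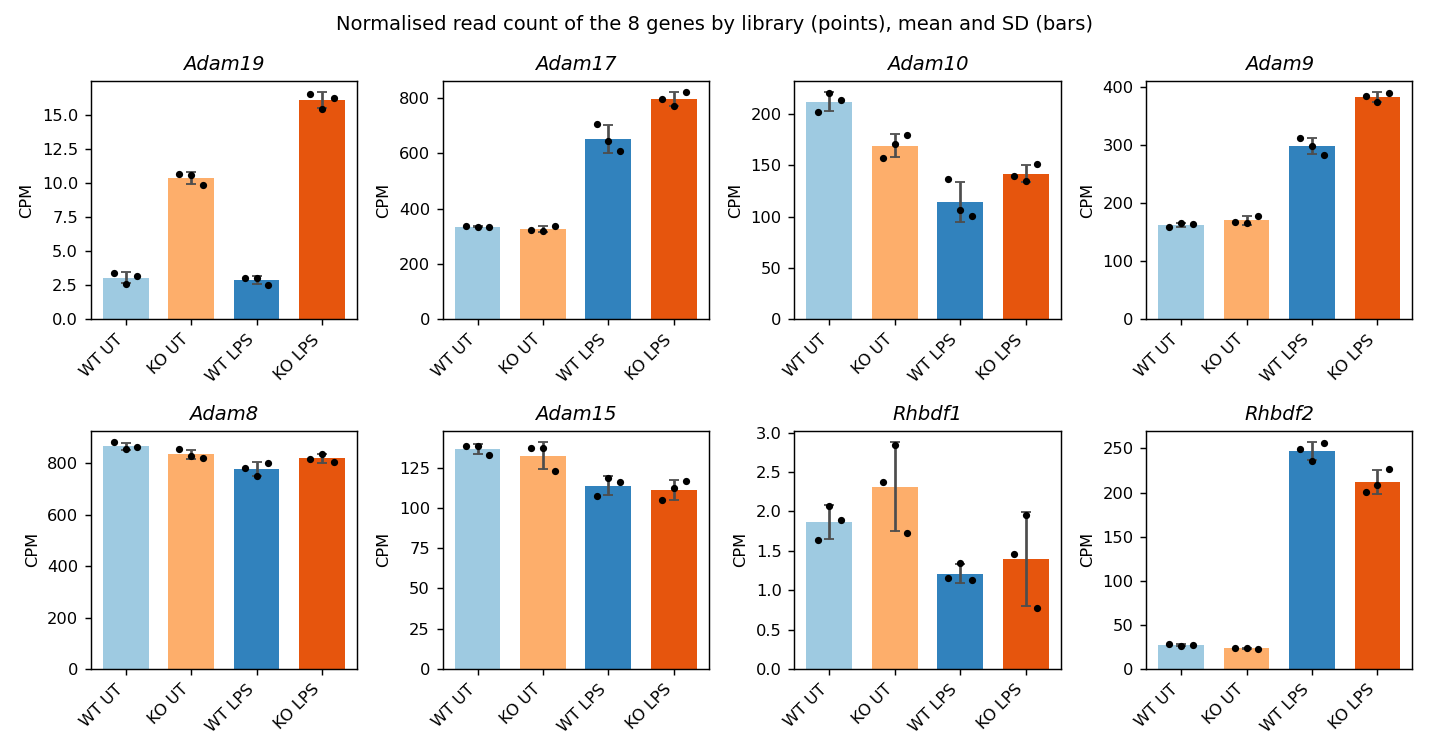
Normalised read count (CPM, linear axis from 0, a scale of its own in each panel) of the 8 genes in the 4 groups. Points are single libraries, bars are means and error bars are SD over 3 libraries. Adam19 lies between 2.55 and 3.42 CPM in all WT libraries and between 9.84 and 16.5 CPM in all KO libraries, while Rhbdf2, Adam17 and Adam9 are higher after LPS in both genotypes.

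Adam19 was a low transcript in WT cells and a several-fold higher one in KO cells. WT UT libraries held 3.42, 2.63 and 3.15 CPM, from 146, 119 and 148 counts. KO UT libraries held 10.6, 10.6 and 9.84 CPM, from 368, 361 and 389 counts. All KO UT libraries were thus above all WT UT libraries, by a log2 fold change (log2FC) of 1.76 (SE 0.114), or 3.38-fold. After LPS, WT libraries held 3.06, 3.01 and 2.55 CPM and KO libraries held 16.5, 15.4 and 16.3 CPM. The groups again did not overlap and differed by 2.48 on the log2 scale (SE 0.125), or 5.57-fold. These are the values by which Adam19 was chosen, and no test is attached to them. Even in KO LPS, its level of 2.26 ± 0.0827 CPM per kb (SD, n = 3) was below that of Adam15, the next member up.

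In KO cells, every LPS library held more Adam19 RNA than every UT library, by 0.63 on the log2 scale (SE 0.103), or 1.55-fold. In WT cells the change was -0.09 (SE 0.139, 95% interval -0.38 to 0.20) and the libraries overlapped. The difference between these responses was 0.72 (SE 0.172). The KO LPS libraries are among those by which Adam19 was chosen, so no test is attached here either. In the annotation, Adam19 shares exon bases with the antisense genes Gm16033 and Gm16034, which had 0 counts in every library.

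Some markers of other cell types also differed between the genotypes. Of 10 stromal markers 8 could be tested, and 4 of them were higher in KO UT (3 by DESeq2) and 6 in KO LPS (6 by DESeq2) against WT, with 0 lower by edgeR at adjusted or unadjusted p and by DESeq2. Over all tested genes, 14.1% were higher in KO UT and 7.78% in KO LPS. The 4 in KO UT were Acta2, Tagln, Pdgfra and Dcn. The 6 in KO LPS were Acta2, Tagln, Col1a1, Col1a2, Col3a1 and Dcn. Acta2, smooth muscle actin, had group means of 3.32 CPM in WT UT, 6.48 in KO UT, 2.99 in WT LPS and 10.4 CPM in KO LPS. The summed CPM of the stromal markers was 9.12 to 9.31 in WT UT, 14.2 to 14.5 in KO UT, 25.8 to 27.5 in WT LPS and 39.9 to 40.3 in KO LPS, with Pdgfrb making up 19.8 CPM in WT LPS and 19.7 CPM in KO LPS. Thy1 was at or under the floor of 3 counts in every library, and Lum was at 0 in every UT library. Neutrophil markers were also higher in KO UT, with 4 of the 6 tested passing and summed CPM of 42.6 to 48.1 against 20.5 to 22.0 in WT UT, although Ly6g was at 0 in every library. After LPS 1 neutrophil marker, S100a9, passed, and the sums overlapped, at 67.3 to 76.8 in KO and 50.5 to 79.6 in WT. Summed dendritic cell markers were 8.46 to 10.9 CPM in UT libraries and 12.6 to 15.7 CPM in LPS libraries, with 0 of 7 tested passing between genotypes in either condition by edgeR (1 in UT and 2 after LPS at an unadjusted p under 0.05, and 0 and 1 by DESeq2). B cell markers summed to at most 1.79 CPM. T cell markers summed to 1.77 to 2.40 CPM in WT UT, 2.53 to 3.44 in KO UT, 0.377 to 0.584 in WT LPS and 0.732 to 1.09 CPM in KO LPS, higher in KO without overlap in both conditions. These sums were mostly Cd4, at 1.92 CPM in WT UT, 2.89 in KO UT, 0.457 in WT LPS and 0.914 CPM in KO LPS. Cd3e, Cd3d, Cd3g, Cd8a and Trac had at most 5 counts in any library. Cd4, the 1 of 6 T cell markers that was tested, was higher in KO after LPS (log2FC 1.00, edgeR adjusted p = 0.0453). The part of these cells in the Adam19 difference was not tested.

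Adam17, the TNF sheddase, rose with LPS in both genotypes and rose further in KO cells. WT UT libraries held 336, 333 and 335 CPM and WT LPS libraries 708, 647 and 608 CPM, a log2 fold change of 0.97 (SE 0.0559, edgeR adjusted p = 8.76e-13). KO UT libraries held 323, 319 and 338 CPM and KO LPS libraries 797, 774 and 821 CPM, a log2 fold change of 1.29 (SE 0.0562, edgeR adjusted p = 6.04e-15). The UT and LPS libraries did not overlap in either genotype, and Adam17 went up 1.95-fold in WT and 2.44-fold in KO. Without LPS the KO against WT difference was -0.04 (95% interval -0.15 to 0.08, edgeR adjusted p = 0.711), with overlapping libraries. After LPS all KO libraries were above all WT libraries, by 0.29 (SE 0.0554, edgeR adjusted p = 0.00145). The difference between the LPS responses was 0.32 (SE 0.0783, edgeR adjusted p = 0.00693). Adam17 shares 311 exon bases with Iah1 on the opposite strand, whose 1118 to 2019 counts per library compare with 10865 to 22439 counts for Adam17. Iah1 was higher in KO UT (log2FC 0.50, edgeR adjusted p = 2.46e-05), where Adam17 did not pass, and it rose with LPS, as Adam17 did, in WT (log2FC 0.46, edgeR adjusted p = 8.94e-06) and KO (log2FC 0.17, edgeR adjusted p = 0.0389). How the counting treated strand is not given in the sources used here.

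Rhbdf2, which encodes the iRhom that escorts ADAM17 in blood cells, had the largest LPS response of the 8 genes. It went from 28.0, 25.6 and 26.9 CPM in WT UT to 249, 236 and 256 CPM in WT LPS, 9.20-fold (log2FC 3.20, SE 0.0653, edgeR adjusted p = 7.76e-21). In KO it went from 24.1, 23.5 and 22.2 CPM to 201, 209 and 227 CPM, 9.12-fold (log2FC 3.19, SE 0.0661, edgeR adjusted p = 9.48e-21). The responses differed by -0.01 (95% interval -0.20 to 0.17, edgeR adjusted p = 0.945). KO libraries were below WT libraries without overlap in both conditions, by -0.21 in UT (SE 0.065, edgeR adjusted p = 0.0247) and by -0.22 after LPS (SE 0.059, edgeR adjusted p = 0.017). These 2 calls depended on single libraries. In UT the adjusted p was 0.11 without WT UT library 1, 0.0693 without WT UT library 3, 0.0614 without KO UT library 2 and 0.111 without KO UT library 3, and after LPS it was 0.0989 without KO LPS library 1 and 0.0658 without KO LPS library 2.

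Rhbdf1, the other iRhom gene, had the lowest counts of the members, at 21 to 97 per library. It read 1.64, 2.07 and 1.89 CPM in WT UT and 1.16, 1.35 and 1.13 CPM in WT LPS, a change of -0.63 on the log2 scale (SE 0.287, edgeR adjusted p = 0.0556). The change in WT passed with the replicate number as a block (log2FC -0.64, edgeR adjusted p = 0.0357), under DESeq2 (adjusted p = 0.0366), with RLE scaling (adjusted p = 0.0412), with upper-quartile scaling (adjusted p = 0.017), with no filter (adjusted p = 0.0266) and with the compared groups alone (adjusted p = 0.02). It did not pass when genes needed a mean CPM of 1 (adjusted p = 0.0586) or with protein-coding genes alone (adjusted p = 0.0894), and with 1 library left out its adjusted p ran from 0.0284 to 0.135. In KO it fell from 2.37, 2.85 and 1.72 CPM to 1.46, 1.95 and 0.769 CPM, by 0.73 on the log2 scale (SE 0.276, edgeR adjusted p = 0.0227), with overlapping libraries. This fall did not pass without KO UT library 1 (log2FC -0.705, adjusted p = 0.0533), KO UT library 2 (log2FC -0.554, adjusted p = 0.112) or KO LPS library 3 (log2FC -0.435, adjusted p = 0.148). With 1 library left out, its log2 fold change ran from -1.054 to -0.435. KO and WT differed by 0.30 in UT (95% interval -0.23 to 0.83) and by 0.20 after LPS (95% interval -0.45 to 0.85), neither of which passed (edgeR adjusted p = 0.443 and 0.728). Within a library and per kilobase, Rhbdf2 exceeded Rhbdf1 by a mean ratio of 14.9 ± 2.45 in WT UT and 211 ± 27.9 in WT LPS (SD, n = 3). In KO it was 10.7 ± 2.42 in UT and 185 ± 104 after LPS (SD, n = 3), where single libraries ran from 110 to 303.

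Adam10 moved the other way from Adam17 and was the member whose LPS response differed most between genotypes among those tested. WT libraries held 203, 221 and 213 CPM in UT and 137, 106 and 100 CPM after LPS, and KO libraries held 157, 171 and 180 CPM in UT and 140, 135 and 151 CPM after LPS. It fell by 0.89 in WT (SE 0.0863, edgeR adjusted p = 6.13e-09) and by 0.25 in KO (SE 0.0856, edgeR adjusted p = 0.0115), with no overlap between UT and LPS libraries in either. The difference between the responses was 0.63 (SE 0.121, edgeR adjusted p = 0.000955). KO was lower than WT in UT, by -0.33 without overlap (SE 0.0848, edgeR adjusted p = 0.00674), and higher than WT after LPS, by 0.31 (SE 0.0867, edgeR adjusted p = 0.0217), where WT library 1 lay between the KO libraries. The LPS difference was 0.46 (adjusted p = 1.34e-05) without WT LPS library 1. Its adjusted p was 0.106 without WT LPS library 2, 0.092 without WT LPS library 3, 0.0525 without KO LPS library 1, 0.0982 without KO LPS library 3, and 0.0547 with the compared groups alone. The fall in KO did not pass without KO UT library 3 (log2FC -0.211, adjusted p = 0.0532) or KO LPS library 2 (log2FC -0.217, adjusted p = 0.0543). With upper-quartile scaling it was larger (log2FC -0.438, edgeR adjusted p = 4.94e-05).

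The balance of the sheddases thus changed with LPS. Per kilobase and within a library, the ratio of Adam10 to Adam17 was 0.923 ± 0.0437 in WT UT and 0.254 ± 0.0240 in WT LPS (SD, n = 3). In KO it was 0.753 ± 0.0381 in UT and 0.259 ± 0.00770 after LPS (SD, n = 3). The KO and WT ranges were apart in UT, at 0.709 to 0.778 against 0.877 to 0.964, and overlapped after LPS, at 0.253 to 0.268 against 0.240 to 0.282. The ratio of Rhbdf2 to Adam17 was 0.108 ± 0.00426 in WT UT, 0.512 ± 0.0502 in WT LPS, 0.0964 ± 0.00657 in KO UT and 0.360 ± 0.0168 in KO LPS (SD, n = 3). Such ratios within a library do not depend on the scaling between libraries.

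Adam9, a widely expressed family member, followed the pattern of Adam17. It read 158, 166 and 163 CPM in WT UT, 312, 299 and 284 CPM in WT LPS, 167, 165 and 178 CPM in KO UT and 383, 374 and 390 CPM in KO LPS. LPS raised it by 0.88 in WT (SE 0.0545, edgeR adjusted p = 3.06e-12) and by 1.17 in KO (SE 0.0547, edgeR adjusted p = 2.04e-14). In UT the genotypes overlapped and differed by 0.07 (95% interval -0.05 to 0.18, edgeR adjusted p = 0.425), and after LPS KO libraries were higher without overlap, by 0.36 (SE 0.054, edgeR adjusted p = 0.000129). The difference between the responses was 0.29 (SE 0.0765, edgeR adjusted p = 0.0111).

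Adam8, the abundant myeloid member, changed little. It read 883, 855 and 863 CPM in WT UT, 780, 750 and 803 CPM in WT LPS, 857, 829 and 820 CPM in KO UT and 818, 838 and 805 CPM in KO LPS. It fell in WT by 0.16 (SE 0.0469, edgeR adjusted p = 0.00505), and in KO the change was -0.03 (95% interval -0.12 to 0.07, edgeR adjusted p = 0.626). A fit of protein-coding genes alone left the WT change at -0.08 (adjusted p = 0.122). Upper-quartile scaling, which lowered the median of all genes, gave -0.34 in WT (edgeR adjusted p = 1.42e-06) and -0.21 in KO (edgeR adjusted p = 0.000366). KO and WT differed by -0.05 in UT (95% interval -0.15 to 0.04) and by 0.08 after LPS (95% interval -0.02 to 0.17). Under DESeq2 the UT difference was -0.13 and passed (adjusted p = 0.0137), and so did the difference between the LPS responses, at 0.21 (adjusted p = 0.00437), against 0.13 by edgeR (adjusted p = 0.199). With RLE scaling edgeR gave the same values, which also passed. That scaling moved the median of all genes from 0.001 to -0.07 in UT and from -0.007 to 0.073 for the difference of responses. Adam8 shares 46 exon bases with Gm16201 on the opposite strand, which had 59 to 154 counts per library.

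Adam15 fell slightly with LPS in both genotypes. WT libraries held 139, 138 and 133 CPM in UT and 107, 118 and 116 CPM after LPS, a log2 fold change of -0.26 (SE 0.0611, edgeR adjusted p = 0.000576). KO libraries held 137, 137 and 123 CPM in UT and 105, 112 and 117 CPM after LPS, a log2 fold change of -0.25 (SE 0.0611, edgeR adjusted p = 0.000901). Upper-quartile scaling, which lowered the median of all genes, gave -0.446 in WT and -0.438 in KO. UT and LPS libraries did not overlap in either genotype, while the genotypes overlapped in both conditions. KO against WT was -0.04 in UT (95% interval -0.17 to 0.08) and -0.03 after LPS (95% interval -0.16 to 0.10). The antisense gene 4731419I09Rik, which shares 1263 exon bases with Adam15, had 1 to 11 counts per library.

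Of the 7 members other than Adam19, LPS in WT raised 3 (Adam17, Adam9 and Rhbdf2) and lowered 3 (Adam10, Adam8 and Adam15) at an adjusted p below 0.05, where 38.0% of all tested genes rose and 35.3% fell. In KO it raised 3 (Adam17, Adam9 and Rhbdf2) and lowered 3 (Adam10, Adam15 and Rhbdf1), beside 35.1% and 37.7% of all genes. A change above 2-fold was reached by 1 of the 7 in WT (Rhbdf2) and by 3 in KO (Rhbdf2, Adam17 and Adam9), where 37.8% and 37.0% of all genes reached it. Adam17 and Adam10 lay close to this limit in WT. Adam10 passed it without WT LPS library 1 (-1.04) and with upper-quartile scaling (-1.07), and Adam17 without WT LPS library 3 (1.02) and with protein-coding genes alone (1.04), which made the WT count 2 each time. In KO, Rhbdf1 passed it without KO LPS library 2 (-1.05) and Adam9 did not with upper-quartile scaling (0.985). The median log2 fold change of all 8 members, Adam19 included, was -0.12 in WT and 0.30 in KO, against 0.05 and -0.06 over all tested genes. Since most tested genes responded to LPS, these counts lie near the background and say little about the members as a set.

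**Figure D2:**
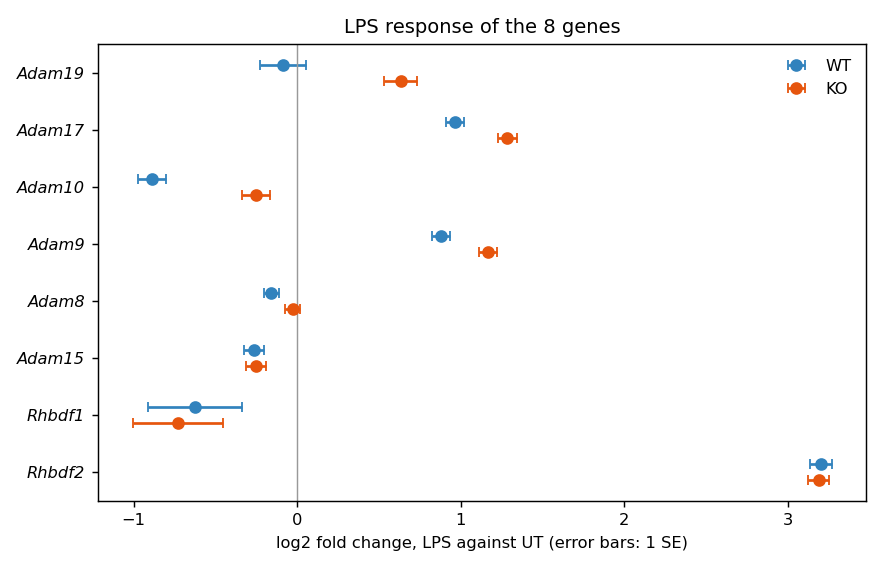
LPS response of the 8 genes as log2 fold change of LPS against UT libraries (horizontal axis), for WT in blue and KO in orange, with error bars of 1 SE from the edgeR fit. Rhbdf2 is near 3.2 in both genotypes, Adam17 and Adam9 are further right in KO, and Adam10 is further left in WT.

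Of the 7 members other than Adam19, KO cells differed from WT without LPS in 2, both lower (Adam10 and Rhbdf2), and 0 were higher by edgeR at adjusted or unadjusted p and by DESeq2, where 9.69% of all tested genes were lower and 14.1% higher. After LPS 3 were higher in KO (Adam17, Adam9 and Adam10) and 1 was lower (Rhbdf2), beside 7.78% and 6.54% of all genes. By edgeR at adjusted or unadjusted p and by DESeq2, 0 of the 7 passed with a change above 2-fold in either condition, which 1.82% of all genes did in UT and 1.25% after LPS. Macrophage markers moved with genotype too, as 5 of 8 were higher in KO in UT and 5 of 8 after LPS, while Csf1r was lower in UT (-0.13, edgeR adjusted p = 0.0491). After LPS, Adgre1 was higher by 0.30 (edgeR adjusted p = 0.000151) and Itgam by 0.36 (edgeR adjusted p = 0.00531), a size near that of Adam17, Adam9 and Adam10, and their part in these differences was not tested. Without KO LPS library 1, which ended the calls of Adam10 and Rhbdf2, the count after LPS was 2 of 7. The LPS response was more positive in KO in 3 of the 7 (Adam17, Adam9 and Adam10) and more negative in 0 by edgeR at adjusted or unadjusted p and by DESeq2, where 7.32% and 9.50% of all genes passed, 2.16% of all genes with a difference above 2-fold. Medians over the 7 were -0.05 in UT, 0.20 after LPS and 0.13 for the difference of the responses, against 0.00, -0.01 and -0.01 over all genes.

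**Figure D3:**
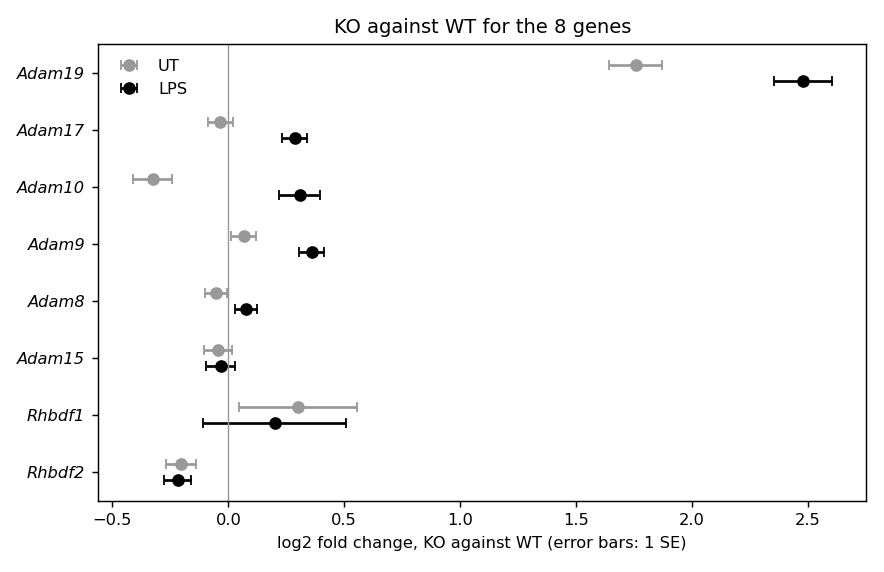
Log2 fold change of KO against WT libraries (horizontal axis) for the 8 genes, in UT (grey) and after LPS (black), with error bars of 1 SE from the edgeR fit. Adam19, chosen for this difference, stands at 1.76 and 2.48, and the other 7 genes lie between -0.33 and 0.36.

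Genes that act on ADAM proteases were examined as a list of 17, of which 13 were expressed enough to be tested. In WT, 6 of them rose and 5 fell with LPS, and in KO 5 rose and 5 fell, with median log2 fold changes of 0.28 and 0.12. Over all tested genes 38.0% rose and 35.3% fell in WT, and 35.1% rose and 37.7% fell in KO. Timp1, an inhibitor of metalloproteases, went up in WT from 1.16 to 167 CPM (log2FC 7.17, SE 0.132, edgeR adjusted p = 1.3e-21) and in KO from 2.77 to 169 CPM (log2FC 5.93, SE 0.12, edgeR adjusted p = 6.49e-21). Its level was higher in KO than in WT before LPS, by 1.26 (edgeR adjusted p = 3.12e-05), and not distinguished after LPS (log2FC 0.02, edgeR adjusted p = 0.926). Timp2 fell by 1.45 in WT and by 1.54 in KO. Furin and Pcsk7, convertases that remove ADAM prodomains, rose in WT by 1.11 and 1.46 and in KO by 0.98 and 1.68.

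Timp3, the inhibitor best known for blocking ADAM17, was low but moved with genotype. It read 1.68 CPM in WT UT, 2.47 in WT LPS, 2.25 in KO UT and 6.90 CPM in KO LPS, and after LPS it was higher in KO than in WT by 1.47 (SE 0.18, edgeR adjusted p = 1.3e-05). Its responses differed by 1.06 (SE 0.26, edgeR adjusted p = 0.00731). Tspan14, a TspanC8 partner of ADAM10, fell in WT from 82.8 to 47.6 CPM and in KO from 80.3 to 60.7 CPM, and the responses differed by 0.40 (SE 0.0773, edgeR adjusted p = 0.00112). Tspan5 and Tspan17, of the same group, fell in both genotypes, whereas Tspan33 did not pass (edgeR adjusted p = 0.29 in WT and 0.461 in KO). Frmd8, which stabilises iRhoms at the surface, rose by 0.46 in WT and 0.51 in KO. Tspan5, Tspan33 and Frmd8 were named after their values were seen. Between genotypes, 3 of 13 were higher and 1 lower in KO UT, and 3 were higher and 2 lower in KO LPS, with medians of -0.09 and 0.02. The shares over all genes were 14.1% higher and 9.69% lower in UT, and 7.78% and 6.54% after LPS. Timp2 was higher in KO in both conditions, by 0.29 and 0.20, Tspan17 was higher and Pacs2 lower in UT, by 0.29 and -0.20, and Furin and Pdia6 were lower after LPS, by -0.28 and -0.27.

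Most substrates of these proteases rose with LPS. Of 24 tested of 25 listed, 18 rose and 4 fell in WT, and 18 rose and 3 fell in KO, with medians of 1.66 and 1.67, beside 38.0% rising and 35.3% falling over all genes in WT and 35.1% and 37.7% in KO, with all-gene medians of 0.05 and -0.06. Tnf, the substrate that gives ADAM17 its other name, was at 15.3 CPM in WT UT, 890 CPM in WT LPS, 9.71 CPM in KO UT and 432 CPM in KO LPS. KO libraries held less Tnf RNA than WT after LPS, by -1.04 (SE 0.0604, edgeR adjusted p = 2.76e-10), while they held more Adam17 RNA. Per kilobase and within a library, the ratio of Tnf to Adam17 was 0.200 ± 0.00999 in WT UT, 5.98 ± 0.829 in WT LPS, 0.130 ± 0.0132 in KO UT and 2.37 ± 0.148 in KO LPS (SD, n = 3).

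Met, Vcam1 and Icam1 were among the substrates with the largest increases. Met, the receptor of hepatocyte growth factor, rose by 5.60 in WT and 6.16 in KO, and the adhesion receptors Vcam1 and Icam1 rose by 5.34 and 3.77 in WT and by 5.65 and 3.79 in KO. Mertk, a receptor for the clearance of dead cells, fell by 2.35 in WT and by 2.47 in KO. The interleukin 6 receptor gene Il6ra fell in WT from 97.6 to 54.7 CPM, but in KO it went from 76.2 to 70.0 CPM (edgeR adjusted p = 0.0698), and the responses differed by 0.71 (SE 0.0842, edgeR adjusted p = 1.08e-05). Axl, a receptor that like Mertk acts in the clearance of dead cells, was lower in KO in UT (-0.74) and after LPS (-0.30), and Trem2, a lipid-sensing receptor, was higher in KO in UT (0.59). In KO against WT, 5 of 24 substrates were higher and 9 lower in UT, and 4 were higher and 4 lower after LPS, with medians of -0.07 and -0.015. Over all genes, 14.1% were higher and 9.69% lower in UT, and 7.78% and 6.54% after LPS. The shedding of these proteins was not measured.

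**Figure D4:**
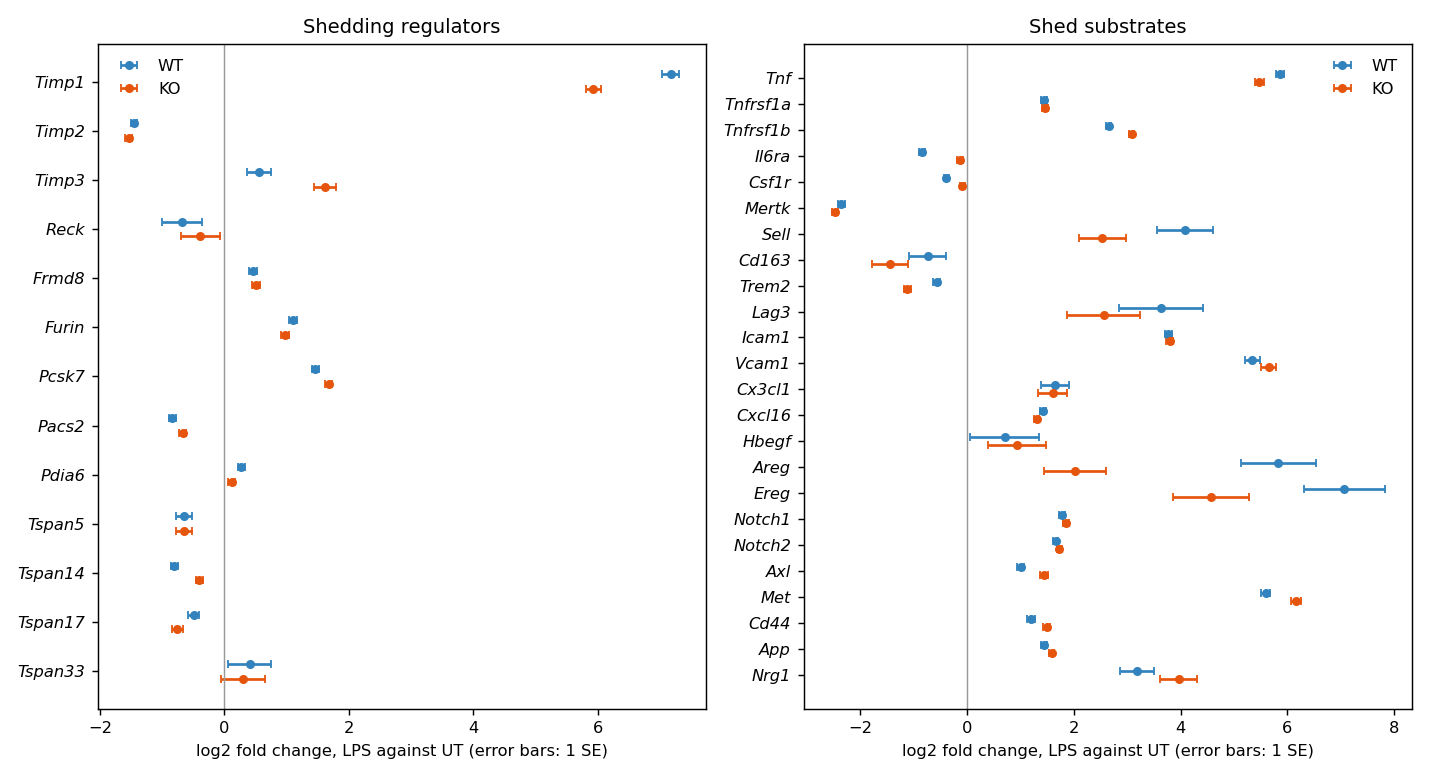
Log2 fold change of LPS against UT libraries (horizontal axis) for the 13 tested shedding regulators (left) and 24 tested substrates (right), for WT in blue and KO in orange, with error bars of 1 SE from the edgeR fit. Timp1 is furthest right among regulators, at 7.17 in WT and 5.93 in KO, and most substrates lie to the right of 0.

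Genes around Adam19 were examined for the same contrast. Within 500 kb of it the table held 34 genes, of which 8 were tested. In UT 1 was higher in KO and 2 were lower, and after LPS 1 was higher and 2 were lower, with 0 changed above 2-fold in either condition by edgeR (1 in UT and 0 after LPS at an unadjusted p under 0.05) or by DESeq2. Over all genes, 14.1% were higher and 9.69% lower in UT, and 7.78% and 6.54% after LPS. The genes lower in both conditions were Havcr2, by -0.44 in UT and -0.72 after LPS, and Cyfip2, by -0.30 and -0.25. The genes that were higher were Gm12166 in UT (0.59), whose start lies 4.6 kb before that of Adam19, and Lsm11 after LPS (0.38). These genes were named after their values were seen. The HSS9 deletion lies near Tnf on another chromosome.

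**Figure D5:**
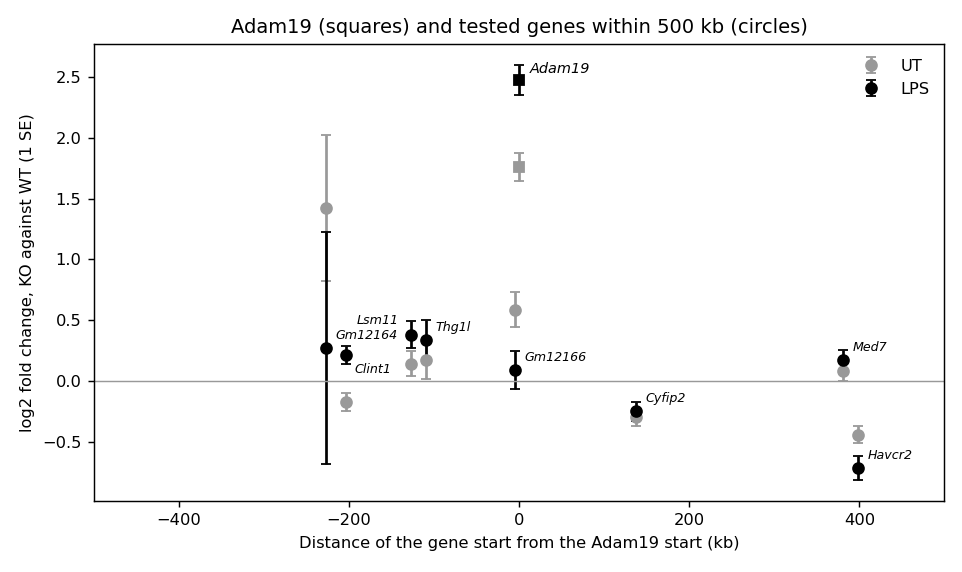
Log2 fold change of KO against WT (vertical axis, error bars of 1 SE) against the distance of the gene start from the Adam19 start in kb, for Adam19 (squares) and 8 tested genes within 500 kb (circles), in UT (grey) and after LPS (black). Adam19 is at 1.76 and 2.48, and the 2 neighbours with the most negative values in LPS are Havcr2 and Cyfip2.

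Across the 12 libraries and 9078 protein-coding genes with a mean of at least 5 CPM, the genes with a log2 CPM pattern most like Adam19 were Acta2 (r = 0.973), Etv5 (r = 0.972), Hvcn1 (r = 0.958), Ywhaq (r = 0.956) and Cdc16 (r = 0.949). Those most like Adam17 included Lcp1 (r = 0.998), Nckap1l (r = 0.998), Ldha (r = 0.998) and Capza2 (r = 0.998). Lcp1, which encodes the actin-bundling protein L-plastin of blood cells, had group means of 864 CPM in WT UT, 882 in KO UT, 2230 in WT LPS and 2810 CPM in KO LPS. These r values describe an order among genes that share libraries and group structure, and no p is given.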

How the data were processed

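Stranded total RNA libraries of 12 BMDM samples were sequenced in pairs by the authors. The submitters' processing notes name FastQC 0.11.9, HISAT2 2.1.0, SAMtools 1.17 and featureCounts 2.0.0 with GRCm38. The annotation release, strand setting and treatment of multi-mapped reads are not given in the sources used here. The deposited file holds raw counts per Ensembl gene, with no normalization by the authors. Of 48526 identifiers, 48144 matched GENCODE annotation, and the other 382 held 0.1217% of counts.

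The members, lists and tests were chosen with earlier results of these data known. All 12 libraries were fitted in one model of 4 group means with edgeR 4.0.16 (R 4.3.3, limma 3.58.1), using TMM scaling, filterByExpr (minimum count 10, minimum total 15), which kept 15523 genes with 99.96% of counts, and the quasi-likelihood test. Adjusted p-values are Benjamini-Hochberg values over these genes. A gene rose or fell where the adjusted p was under 0.05. A change above 2-fold needed that and an absolute log2FC over 1. SE is the absolute log2 fold change divided by the square root of F. The common biological coefficient of variation was 0.0712. The fit was tried on simulated counts in which a set of genes changed in KO LPS alone. That simulation held no LPS response, so it does not test the scaling between UT and LPS libraries. Intervals are at 95%. Floors and counts cover counting error only. Within each group, no pair of libraries agreed within sampling noise.

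Named from the lists were genes called with a change above 2-fold and the 4 with the largest changes among those with a mean CPM of at least 5, unless the text says that a name was chosen after its values were seen. Patterns most like Adam19 and Adam17 were the 5 protein-coding genes with the highest Pearson r at that mean CPM, of which 1 is not reported here.

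The labels give each library a batch equal to its replicate number, so that numbers pair libraries across groups. Over 18 pairs the correlation of deviations from the group means ran from -0.0631 to 0.0373, and 0 exceeded 0.1. Alternatives were DESeq2 1.42.0, RLE and upper-quartile scaling, other filters, protein-coding genes alone, the replicate block, the compared groups alone and leaving out each library. The study's methods describe KO animals kept as homozygotes beside purchased C57BL/6 animals, whereas the labels say littermates, so a difference in strain background and the deletion cannot be told apart here.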

Additional observations from a re-analysis of the deposited data

Results flagged for a closer look

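The LPS response differed between the genotypes by a test of the difference itself in 3 members. Over all tested genes 7.32% had a more positive response in KO and 9.50% a more negative one. The KO response minus the WT response was 0.32 on the log2 scale for Adam17 (SE 0.0783, edgeR adjusted p = 0.00693), 0.292 for Adam9 (SE 0.0765, edgeR adjusted p = 0.0111) and 0.634 for Adam10 (SE 0.121, edgeR adjusted p = 0.000955). Leaving out each library in turn gave 0.27 to 0.38 for Adam17, 0.26 to 0.33 for Adam9 and 0.55 to 0.78 for Adam10, and all of these passed. For Adam17 and Adam9 both responses were increases, and for Adam10 both were decreases, of which the WT one was larger. The WT LPS libraries differed most from each other. Without WT LPS library 1 the differences were 0.381, 0.327 and 0.784 for Adam17, Adam9 and Adam10. Of 8 macrophage markers, 2 had a more positive response in KO (Csf1r 0.293 and Fcgr1 0.272) and 2 a more negative one (Cd14 -0.526 and Cd68 -0.288). Their part in the differences of the members was not tested.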

How the results depend on the processing

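Adam19 kept its direction between genotypes under every alternative, with 1.66 to 1.84 in UT and 2.40 to 2.53 after LPS when each library was left out. Since Adam19 was chosen by this difference and its KO and WT libraries lie far apart, a kept direction is no test of it. The count of the other members differing between genotypes was 2 (1 to 2 with a library left out, 3 with DESeq2 or RLE scaling) in UT and 4 (2 to 4) after LPS. The count of members responding to LPS was 6 (6 to 7, and 5 with protein-coding genes alone) in WT and, of the 7 other than Adam19, 6 (5 to 6, and 7 with upper-quartile scaling) in KO, and 3 members (3 to 3, and 4 with DESeq2 or RLE scaling) differed in response. Of the single-gene values, 678 kept direction and side of the threshold, 15 gained and 17 lost it, and 23 changed sign; the cause was not tested. The changes of sign were small values. The Adam8 response in KO was 0.009 with DESeq2 and RLE scaling and 0.008 with protein-coding genes alone. KO against WT in UT was -0.006 for Adam9 with DESeq2 and RLE scaling. The difference of responses was 0.067 for Rhbdf2 with DESeq2 and RLE scaling and 0.018 with no filter, and for Adam15 -0.009 when genes needed a mean CPM of 1, and -0.031 with protein-coding genes alone. With a library left out, the difference of responses ran from -0.064 to 0.026 for Rhbdf2, -0.425 to 0.194 for Rhbdf1 and -0.038 to 0.055 for Adam15, KO against WT after LPS from -0.074 to 0.01 for Adam15 and -0.124 to 0.495 for Rhbdf1, and in UT from -0.071 to 0.008 for Adam15. Upper-quartile scaling moved the median of all genes from 0.047 to -0.136 for LPS in WT and from -0.055 to -0.239 in KO, and under it the fall of Adam8 in KO passed (-0.211). The replicate block changed 1 call, that of Rhbdf1 with LPS in WT (-0.639, edgeR adjusted p = 0.0357), and no other. Rhbdf1 had the lowest counts of the members, 21 to 97 per library, and the widest intervals.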

Other observations

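Of the other 28 ADAM genes of the table, 14 never exceeded the floor of 3 counts, among them 10 with 0 counts in every library, and 9 could be tested: Adam33, Adam22, Adam3, Adam11, Adam1a, Adam4, Adam21, Adam23 and Adam32. Adam33 rose with LPS from 8.80 to 20.5 CPM in WT (log2FC 1.22, SE 0.0883, edgeR adjusted p = 4.26e-11) and from 8.81 to 18.8 CPM in KO (log2FC 1.10, SE 0.0895, edgeR adjusted p = 3.51e-10). Adam3, known from sperm, rose from 0.144 to 5.29 CPM in WT (log2FC 5.13, edgeR adjusted p = 1.29e-11) and from 0.240 to 4.43 CPM in KO (log2FC 4.18, edgeR adjusted p = 2.57e-10). It shares 199 exon bases with Gm45528 on the opposite strand, which had at most 1 count. Adam22, which lacks protease activity, fell from 4.14 to 0.562 CPM in WT and from 3.67 to 0.176 CPM in KO.

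Between genotypes, 0 of the 9 passed in UT by edgeR at adjusted or unadjusted p and by DESeq2, and 1 passed after LPS, Adam22, which was lower in KO (log2FC -1.70, SE 0.512, edgeR adjusted p = 0.0304). Over all tested genes 14.1% were higher and 9.69% lower in UT, and 7.78% and 6.54% after LPS, so both counts are near the background. The KO and WT libraries of Adam22 overlapped after LPS, where it had at most 24 reads in a WT library and 8 in a KO library. Adam1a shares 4779 exon bases with Gm42878 on the same strand, and reads of these genes can be split between them. Adam1a read 1.64 and 2.79 CPM in WT UT and WT LPS.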
